A study of Mus musculus with 23 samples.

Results

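The small proteoglycans and matricellular proteins of muscle connective tissue were followed through 10 genes: decorin (Dcn), biglycan (Bgn), lumican (Lum), fibromodulin (Fmod), osteoglycin (Ogn), Sparc, periostin (Postn), fibronectin (Fn1), fibrillin-1 (Fbn1) and tenascin-X (Tnxb). They were chosen by name for their place in the extracellular matrix, with earlier results of these data known. All 10 were among the 13049 genes tested of 55573 gene IDs in the count table. The counts come from bulk RNA sequencing of quadriceps, the large thigh muscle, of C57Bl6 mice (C57BL/6J in the study's methods) aged 8 to 10 weeks that carried a slow-release pellet under the skin for 14 days and were fasted for 5 hours before collection. The groups differed by sex and pellet, where the corticosterone pellet (CORT) held 50 mg corticosterone and 50 mg cholesterol and the vehicle pellet (VEH) held cholesterol only. There were 6 vehicle-treated males, 6 corticosterone-treated males, 6 vehicle-treated females and 5 corticosterone-treated females, each library being from 1 mouse, and no group carried a genetic alteration. Corticosterone is the main glucocorticoid of rodents, and the comparisons ask what an excess of it does to these transcripts and whether males and females respond alike.

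The matrix between muscle fibers is built mainly by resident fibroblasts. Small leucine-rich proteoglycans such as decorin and lumican coat collagen fibrils and set their diameter and spacing, and several of them bind growth factors of the TGF-beta family. Matricellular proteins such as Sparc and periostin act on how cells attach to and remodel the matrix rather than as its main scaffold, while fibronectin and fibrillin-1 form the fibrils on which other matrix proteins are laid down.

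Depth was even across mice, with 20904150 to 21984477 counts assigned to genes per library. Myofiber markers made up 92976 to 249080 counts-per-million (CPM) in every library, the tissue named on the labels. Hepatocyte markers, with albumin (Alb) the most abundant, summed to 1116 to 2545 CPM in 5 libraries (F6, F10, M8, M9 and M12) and to at most 327 CPM in the others, with 0 of the 8 markers at 0 in every mouse. Liver tissue also makes fibronectin, and calls of the 10 genes that are lost without these 5 libraries are given with and without them. In bulk muscle, fewer cells of a type and less RNA per cell cannot be told apart.

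Compared per length, as CPM per kilobase of annotated exon, Sparc and Dcn had the highest means of the 10 genes in all 4 groups. The Sparc and Dcn ranges overlapped in both CORT groups, and the Dcn and Fmod ranges in both vehicle groups. In vehicle-treated males Sparc averaged 131 ± 18.1 and Dcn 73.9 ± 14.8 CPM per kilobase (SD, n = 6), and their ranges did not overlap. Below them Fmod, Ogn, Lum and Bgn averaged 10.6 to 26.1 CPM per kilobase in the same mice, and each of these neighbours in the order overlapped the next. Fn1, Fbn1 and Tnxb followed at 5.47 to 7.39 CPM per kilobase with overlapping ranges, and Postn was lowest at 1.45 ± 0.44 CPM per kilobase (SD, n = 6), below every value of Tnxb. Postn was also the lowest of the 10 in the other 3 groups, although its range overlapped that of the next gene in both female groups.

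The promoters of 3 members are shown because their genes are among those that differed between groups. Their windows also end before the first base of the gene in the annotation used for gene positions. Windows of 250 bases upstream of the transcription start (RefSeq, GRCm38.p6) were found for 7 of the 10 genes, 8 windows in all; Dcn, Lum and Fn1 were among the genes without an entry. Each window was searched on both strands for 4 motifs, and capitals mark the matches. The core promoter motif searched was TATAAA, which the general transcription machinery binds. The motif bound by Sp1-type factors was GGGCGG. The core of a glucocorticoid receptor site was searched as AGAACA. The site of AP-1, a factor that the glucocorticoid receptor is known to restrain, was searched as TGANTCA. Positions count backward from the start site. Each window is written 5′ to 3′ on the strand of its gene.
Postn, chr3:54360857-54361106, plus strand: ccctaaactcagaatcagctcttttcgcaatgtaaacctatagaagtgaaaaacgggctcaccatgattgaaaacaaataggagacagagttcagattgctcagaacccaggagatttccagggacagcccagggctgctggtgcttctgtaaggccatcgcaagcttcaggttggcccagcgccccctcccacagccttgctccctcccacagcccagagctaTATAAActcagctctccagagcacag
Tnxb, chr17:34670285-34670534, plus strand: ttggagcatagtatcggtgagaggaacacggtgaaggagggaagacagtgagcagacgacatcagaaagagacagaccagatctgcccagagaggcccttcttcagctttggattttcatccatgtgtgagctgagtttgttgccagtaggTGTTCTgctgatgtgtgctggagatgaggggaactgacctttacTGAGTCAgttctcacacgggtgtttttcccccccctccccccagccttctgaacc
Bgn, chrX:73483351-73483600, plus strand: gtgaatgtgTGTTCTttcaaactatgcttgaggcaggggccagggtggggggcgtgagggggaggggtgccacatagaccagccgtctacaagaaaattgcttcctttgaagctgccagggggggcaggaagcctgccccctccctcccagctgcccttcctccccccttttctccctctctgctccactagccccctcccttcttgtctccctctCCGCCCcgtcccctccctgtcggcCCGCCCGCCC

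The Postn window shown held TATAAA at -26 on its own strand. A second Postn window, further upstream at chr3:54359017-54359266, held 0 matches. The Tnxb window held AGAACA on the opposite strand at -99 and TGANTCA at -55, a motif that reads the same on both strands. The Bgn window held GGGCGG on the opposite strand at -34, -10 and -6, the last pair overlapping, and AGAACA on the opposite strand at -241. Over the 8 windows AGAACA was found in 3, those of Sparc, Tnxb and Bgn, and among all 32851 promoter windows of this length it was found in 16.1%. Postn and Ogn held TATAAA, which 12.4% of all windows held, and in the Ogn window matches on the 2 strands overlapped. Bgn and Fbn1 held GGGCGG, against 32.7% of all windows. Tnxb was the 1 gene with TGANTCA, found in 6.75% of all windows. A match to such short letters is a description of the window and no evidence that a factor binds there.

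Corticosterone lowered 5 of the 10 genes in males and raised none of them, with edgeR's quasi-likelihood test and a Benjamini-Hochberg adjusted p under 0.01. Of all tested genes 26.3% passed in this comparison, 13.1% as lower and 13.2% as higher. The 5 were Lum, Postn, Fn1, Fbn1 and Tnxb, and the first 4 fell by 73.3% to 79.0% of the vehicle level. All 10 estimates were below 0, with a median log2 fold change of -1.18 against -0.02 over all tested genes. In females 1 of the 10 genes passed, Lum, again as lower, where 13.4% of all genes passed, 783 of them as lower. The median log2 fold change of the 10 genes in females was 0.11 against 0.04 over all genes, with 5 estimates above 0 and 5 below. With a log2 fold change beyond 1 required as well, 4 of the 10 genes remained in males (all but Tnxb of the 5) and 0 in females, against 4.72% and 1.53% of all genes as lower.

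**Figure D1:**
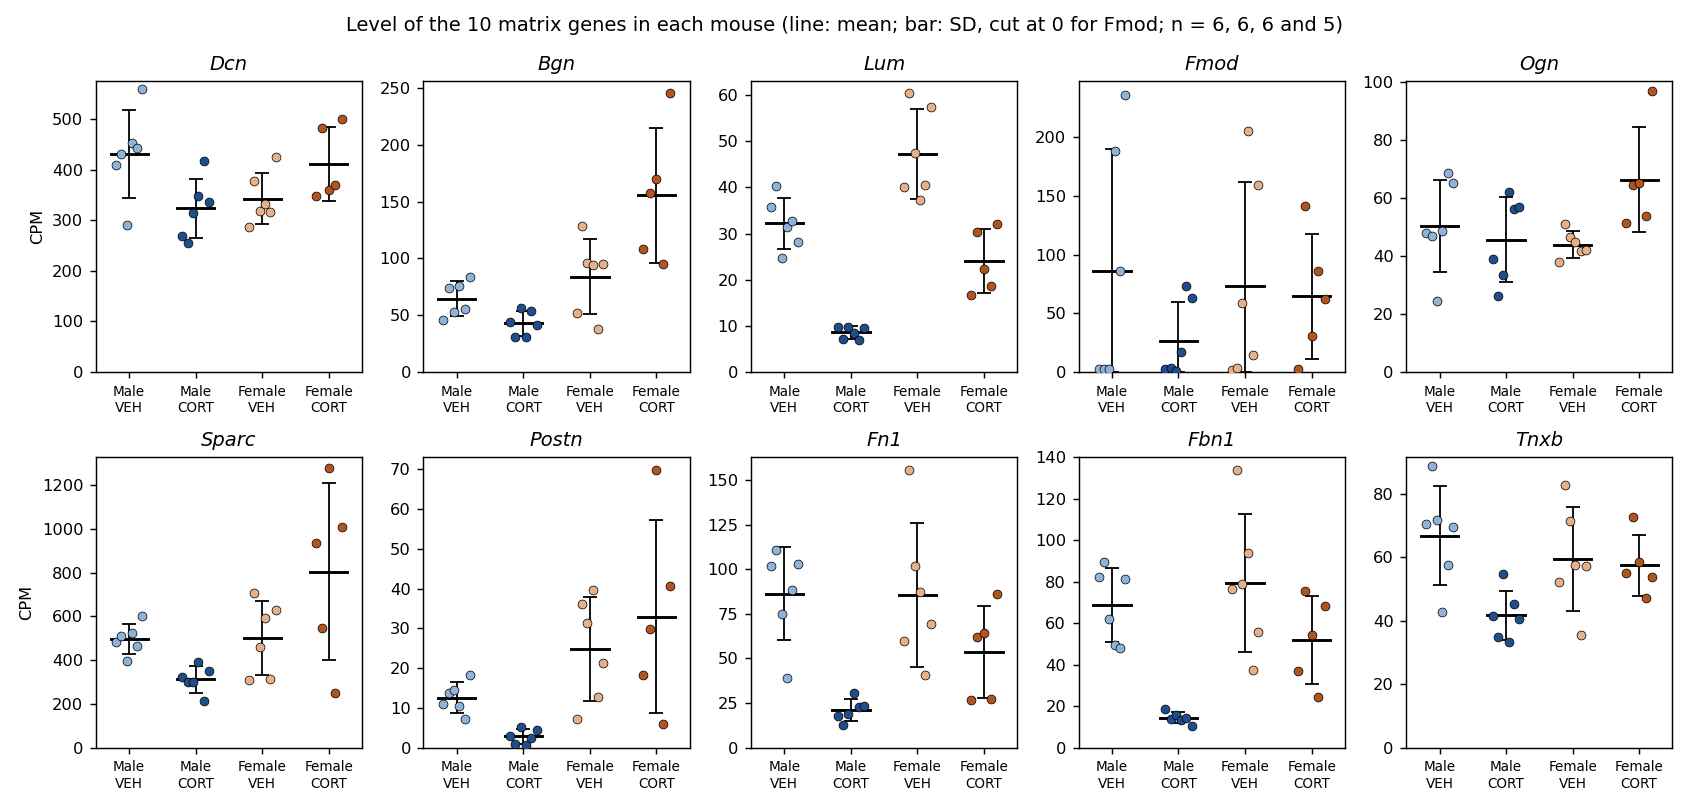
Level of each of the 10 genes in counts-per-million (CPM, vertical axes, each from 0) in every mouse, by sex and treatment; points are mice, horizontal lines group means and bars the SD, cut at 0 for Fmod. Male CORT points lie below all male VEH points for Lum, Sparc, Postn, Fn1 and Fbn1, and female CORT points lie below all female VEH points for Lum.

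Decorin, the most abundant small leucine-rich proteoglycan here, lies on chromosome 10 (97479609 to 97518143, GRCm38) and binds collagen and TGF-beta. Its level was 291 to 561 CPM in vehicle-treated males (median 437) and 256 to 417 CPM in corticosterone-treated males (median 326). The 2 ranges overlapped, although all 6 CORT males were below the vehicle mean, and the log2 fold change of -0.41 (SE 0.15) did not pass (edgeR adjusted p = 0.0273). Vehicle-treated females held 286 to 425 CPM of Dcn (median 326), and the 5 CORT females held 348, 482, 360, 370 and 500 CPM. All 5 were above the vehicle mean of 343 CPM, within an overlapping range, and the log2 fold change was 0.26 (SE 0.15, edgeR adjusted p = 0.207).

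Biglycan, the closest relative of decorin and a gene of the X chromosome (73483602 to 73495933), was at 45.7 to 83.9 CPM in vehicle-treated males (median 64.6) and at 30.5 to 56.5 CPM in CORT males (median 42.9). The log2 fold change in males was -0.59 (SE 0.27), which did not pass (edgeR adjusted p = 0.0817). In females the vehicle range was 37.8 to 129 CPM (median 94.3), and the CORT females held 108, 158, 170, 95.1 and 245 CPM. Each of these 5 values was above the vehicle mean of 83.8 CPM, and the ranges overlapped. The log2 fold change in females was 0.89 (SE 0.28, edgeR adjusted p = 0.0206); without F8 it was 1.02 and passed (adjusted p = 0.00843), and without F3 it was 1.06 and passed (adjusted p = 0.00810). Without F10 it was 0.64 (adjusted p = 0.104), and without the 5 libraries rich in hepatocyte markers 0.50 (adjusted p = 0.329).

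Lumican, which regulates collagen fibril growth and is best known from the cornea, was the 1 gene of the 10 that fell in both sexes. Its gene lies on chromosome 10 (97565128 to 97572703). Vehicle-treated males had 24.6 to 40.4 CPM of Lum (median 32.1) and CORT males 6.87 to 9.84 CPM (median 8.96), with no overlap. That was a 3.75-fold drop, a log2 fold change of -1.91 (SE 0.17, edgeR adjusted p = 6.73e-08). In females the vehicle range was 37.2 to 60.4 CPM (median 44.1), and the CORT values were 16.7, 30.3, 22.3, 18.6 and 32.1 CPM. All 5 CORT females were below the lowest vehicle female, and Lum fell 1.97-fold, a log2 fold change of -0.98 (SE 0.17, edgeR adjusted p = 0.000434). Groups that did not overlap in this direction made up 11.1% of all genes in males and 4.34% in females.

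Fibromodulin, a relative of lumican that is abundant in tendon, lies on chromosome 1 (134037254 to 134048277) and had the widest spread of the 10 genes. Its level ran from 0.998 CPM in M6 to 236 CPM in M11, a 237-fold range over the 23 mice, with low and high mice in every group. In vehicle-treated males it was 2.30 to 236 CPM (median 44.6) and in CORT males 0.998 to 73.7 CPM (median 10.2). Vehicle-treated females had 1.41 to 205 CPM (median 36.7), and the CORT females had 2.63, 141, 31.0, 85.9 and 62.5 CPM. The log2 fold change was -1.69 in males (SE 1.26, 95% interval -4.30 to 0.93) and -0.19 in females (SE 1.28, 95% interval -2.86 to 2.47), so changes of several fold in either direction were not detectable in females. The summed level of 10 tenocyte markers, which include tenomodulin (Tnmd), was 309 CPM in M11 and 316 CPM in F7, the mice with the most Fmod. It was 38.6 CPM in M6 and 25.1 CPM in F1, those with the least. The lowest sum was 23.1 CPM in F9, which had 14.5 CPM of Fmod. Of the 8 tested markers 6 had estimates below 0 in males. The 1 that passed there, Scx, rose (log2 1.51, SE 0.34, edgeR adjusted p = 0.00128). No marker of that list was at 0 in every mouse, 3 (Cilp2, Chad and Kera) were at 0 in some mice, and the part of tendon tissue in the Fmod values was not tested.

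**Figure D2:**
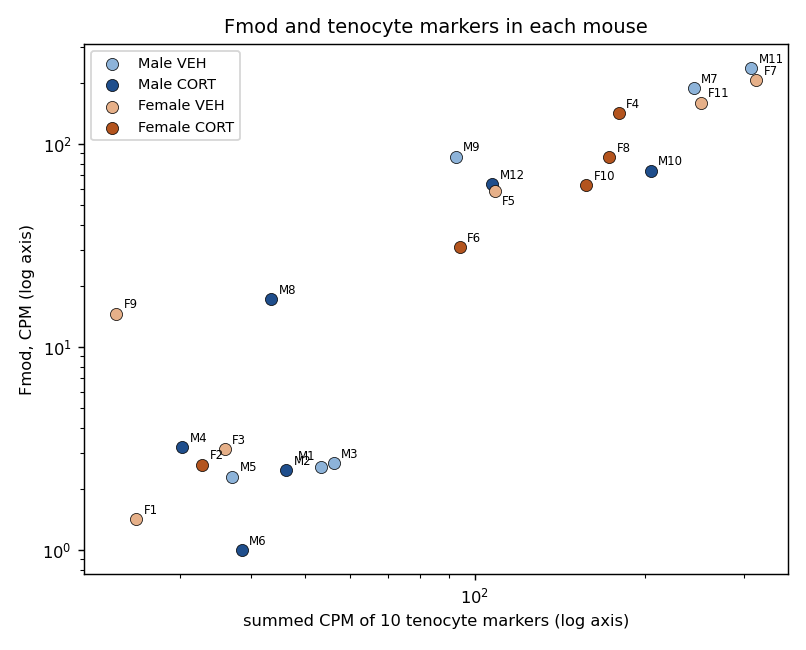
Fmod level against the summed level of 10 tenocyte markers, both in CPM on log axes; each point is 1 of 23 mice, colored by group and named. Mice from all 4 groups lie along the same rising band, with M6 and F1 at the low end (0.998 and 1.41 CPM of Fmod) and M11 and F7 at the high end (236 and 205 CPM).

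Osteoglycin, also called mimecan, is a smaller member of the same protein family, and its gene lies on chromosome 13 (49608046 to 49624501) opposite Cenpp, from which it was counted apart by strand. It was at 24.7 to 68.6 CPM in vehicle-treated males (median 48.3) and 26.3 to 62.1 CPM in CORT males (median 47.7), largely overlapping ranges. The log2 fold change in males was -0.14 (SE 0.22, 95% interval -0.59 to 0.31). Vehicle-treated females had 37.8 to 50.9 CPM of Ogn (median 43.4), and CORT females had 51.5, 64.4, 65.3, 53.7 and 96.8 CPM. All 5 CORT females were above all 6 vehicle females, a separation found in this direction in 3.38% of all genes, and the log2 fold change of 0.59 (SE 0.23) did not pass (edgeR adjusted p = 0.0577). It was 0.34 without the 5 libraries rich in hepatocyte markers (adjusted p = 0.373).

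Sparc, also called osteonectin, is a collagen-binding protein that helps collagen mature into fibrils. Its gene lies on the minus strand of chromosome 11 (55394500 to 55423183). Vehicle-treated males had 396 to 603 CPM (median 498) and CORT males 211 to 394 CPM (median 313), without overlap. Even so, the log2 fold change of -0.67 (SE 0.28) did not pass (edgeR adjusted p = 0.0593), in a fit that shared 1 estimate of the spread over all 4 groups. With males fitted alone it was -0.65 and passed (adjusted p = 0.00218). In females the vehicle range was 309 to 708 CPM (median 525), and the CORT values were 936, 548, 1276, 252 and 1006 CPM. F2, F6 and F10 were above every vehicle female while F8 was below them all, and the log2 fold change was 0.68 (SE 0.29, edgeR adjusted p = 0.0850). Without F8 it was 0.91 and passed (adjusted p = 0.00554), without F6 it was 0.43 (adjusted p = 0.319), and without the 5 libraries rich in hepatocyte markers it was 0.18 (adjusted p = 0.776).

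Adipocyte markers were also highest in F6 and lowest in F8 among the CORT females. Summed without Car3, which muscle fibers also express, 7 adipocyte markers were at 2358 CPM in F2, 644 CPM in F4, 4669 CPM in F6, 72.4 CPM in F8 and 2074 CPM in F10. In the other groups this sum ran from 82.0 to 1810 CPM in vehicle-treated females, from 50.2 to 621 CPM in vehicle-treated males and from 102 to 522 CPM in CORT males. Of the whole list of 8 markers, 2 (Lep and Lipe) rose in females and 0 passed in males, the female count being 1 without F1, F2, F6, F7, F9, F10 or F11 in turn or without the 5 libraries rich in hepatocyte markers, and Lep was at 0 in some mice. Adipocytes express Sparc themselves, and the part of fat tissue in the Sparc values was not tested.

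Periostin, a matricellular protein that is scarce in resting muscle and abundant in growing or healing matrix, lies on chromosome 3 (54361109 to 54391037). In vehicle-treated males it was at 7.27 to 18.3 CPM (median 12.4) and in CORT males at 0.748 to 5.19 CPM (median 2.81), which rested on 17 to 104 counts per mouse. The ranges did not overlap, and Postn fell 4.42-fold, a log2 fold change of -2.14 (SE 0.52, edgeR adjusted p = 0.00253). In vehicle-treated females it was at 7.26 to 39.6 CPM (median 26.3), and in CORT females at 18.3, 30.0, 69.8, 6.04 and 40.8 CPM. The highest and the lowest of all females were both CORT mice, F6 and F8, and the groups overlapped. The log2 fold change in females was 0.42 (SE 0.49, 95% interval -0.60 to 1.44), without F6 it was -0.07, and without the 5 libraries rich in hepatocyte markers it was -0.47.

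Fibronectin, the glycoprotein that integrins grip to assemble new matrix, lies on the minus strand of chromosome 1 (71585520 to 71653200). It was at 39.3 to 110 CPM in vehicle-treated males (median 95.2) and at 12.7 to 30.7 CPM in CORT males (median 20.9). No CORT male reached the lowest vehicle male, and Fn1 fell 4.11-fold, a log2 fold change of -2.04 (SE 0.33, edgeR adjusted p = 6.07e-05). Without the 5 libraries rich in hepatocyte markers the value was -2.24 (adjusted p = 0.000425). In females the vehicle range was 40.9 to 156 CPM (median 78.1), and the CORT values were 26.8, 62.1, 64.5, 27.4 and 86.1 CPM. F2 and F8 were below all vehicle females and F4, F6 and F10 were inside their range, giving a log2 fold change of -0.68 (SE 0.34, edgeR adjusted p = 0.141). Without the same 5 libraries the female value was -1.16 (adjusted p = 0.0738).

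Fibrillin-1, the backbone of the microfibrils that hold elastin and store latent TGF-beta, lies on the minus strand of chromosome 2 (125300594 to 125507993). It had the largest fall of the 10 genes in males, from 48.2 to 89.7 CPM with vehicle (median 71.7) to 10.6 to 18.7 CPM with corticosterone (median 14.003). The groups were far apart, and the 4.77-fold drop gave a log2 fold change of -2.25 (SE 0.28, edgeR adjusted p = 2.99e-06). Vehicle-treated females had 37.7 to 134 CPM (median 77.8), and CORT females had 37.2, 75.7, 54.2, 24.6 and 68.6 CPM. All 5 were below the vehicle mean of 79.6 CPM, the ranges overlapped, and the log2 fold change of -0.61 (SE 0.28) did not pass (edgeR adjusted p = 0.113).

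Tenascin-X, a large glycoprotein that links collagen fibrils and whose loss causes a form of Ehlers-Danlos syndrome, lies on chromosome 17 (34670535 to 34719815). Vehicle-treated males had 42.6 to 88.8 CPM of Tnxb (median 69.9) and CORT males 33.4 to 54.7 CPM (median 41.1). The ranges overlapped slightly, and Tnxb fell with a log2 fold change of -0.68 (SE 0.18, edgeR adjusted p = 0.00468). The call depended on single mice: without M3, M5, M4, M8 or M12 in turn the adjusted p was 0.0154, 0.0101, 0.0133, 0.0138 and 0.0103, and the estimate stayed between -0.78 and -0.58 over all such fits. Without the 5 libraries rich in hepatocyte markers it was -0.62 (adjusted p = 0.0445). In females the vehicle range was 35.4 to 82.8 CPM (median 57.2), and the CORT females had 55.1, 72.7, 58.3, 47.0 and 53.8 CPM. These values lay inside the vehicle range, and the log2 fold change was -0.05 (SE 0.19, 95% interval -0.44 to 0.34).

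**Figure D3:**
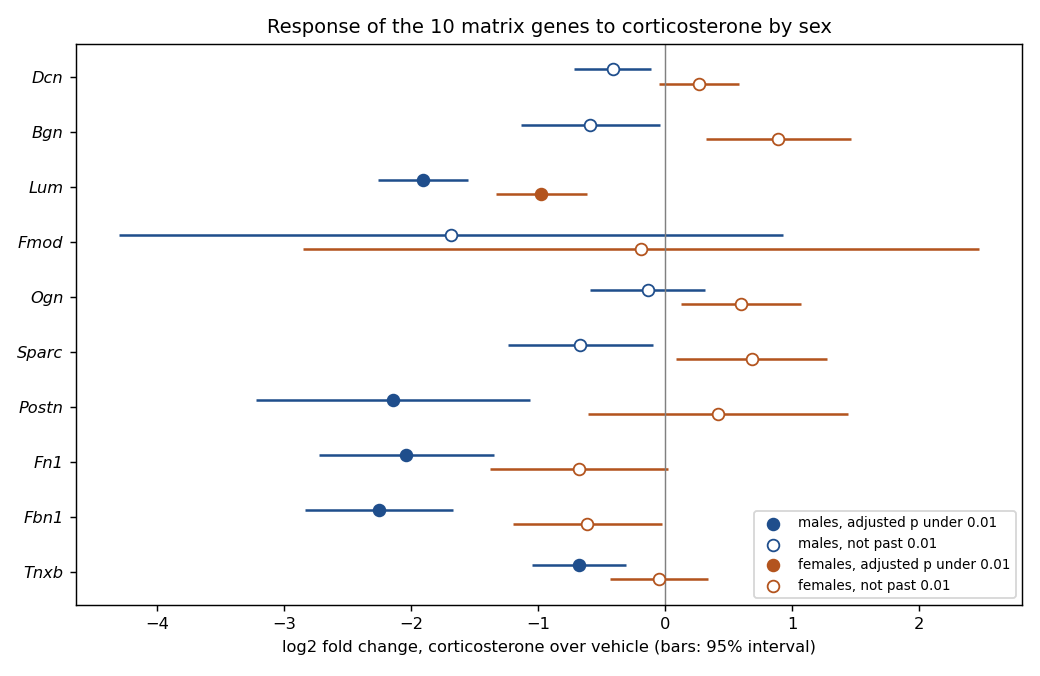
Log2 fold change of corticosterone over vehicle for each gene (horizontal axis) in males (blue) and females (orange), with bars for the 95% interval of the edgeR fit and filled points for adjusted p under 0.01. The 5 filled male points (Lum, Postn, Fn1, Fbn1 and Tnxb) and the 1 filled female point (Lum) all lie below 0, and each male point lies left of the female point of its gene.

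The male response was the lower one for all 10 genes. The difference of the male and female responses was largest for Postn (log2 -2.56, SE 0.71), Fbn1 (-1.64, SE 0.39), Fmod (-1.50, SE 1.78) and Bgn (-1.48, SE 0.38), and smallest for Tnxb (-0.63, SE 0.26). None of the 10 passed 0.01 in the edgeR interaction test, where 0.690% of all genes passed, and the lowest adjusted p values were 0.0169 for Fbn1, 0.0202 for Lum and 0.0211 for Bgn. At an unadjusted p under 0.05 the count was 9 of 10, all but Fmod, against 32.1% of all genes. DESeq2 called 4 of the 10 (Bgn, Lum, Postn and Fbn1), with 6.87% of all genes, and limma-voom with sample quality weights 2 (Sparc and Fbn1), with 5.31% of all genes. The count rested on single mice: it was 5 without F8 (Bgn, Lum, Sparc, Postn and Fbn1), where 6.84% of all genes passed, and 1 without F3 (Fbn1), where 2.31% passed. It was 0 without the 5 libraries rich in hepatocyte markers, where 3 of all genes passed as higher and 0 as lower. The Bgn difference in that fit was -1.01 (edgeR adjusted p = 0.239).

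Without corticosterone no call between the sexes was made for these genes. Between vehicle-treated males and females 0 of the 10 genes passed with edgeR, DESeq2 or limma-voom, where 0.958% of all genes passed with edgeR, 2.18% with DESeq2 and 1.43% with limma-voom, and 2 had an unadjusted p under 0.05, as had 13.2% of all genes. These were Lum, at a mean of 32.2 CPM in males and 47.2 CPM in females (log2 difference -0.55, SE 0.16, edgeR adjusted p = 0.0791), and Dcn, at 432 and 343 CPM (log2 difference 0.33, SE 0.15, edgeR adjusted p = 0.305). Among corticosterone-treated mice 6 of the 10 genes were lower in males, where 23.3% of all genes passed in either direction, 1828 of them as lower. Postn was 11.6-fold lower (log2 -3.53, SE 0.55, edgeR adjusted p = 0.000124). Bgn was 3.62-fold, Fbn1 3.60-fold, Lum 2.80-fold, Sparc 2.57-fold and Fn1 2.54-fold lower, with edgeR adjusted p values from 1.41e-05 for Lum to 0.00383 for Fn1. The Sparc and Fn1 calls were lost with the replicate number as a block (adjusted p = 0.0174 and 0.0228) and with the CORT mice fitted alone (0.0121 and 0.0106), and that of Fn1 also with limma-voom (0.0101).

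For Bgn, Lum, Postn and Fbn1 all 6 CORT males were below all 5 CORT females, as were 5.55% of all genes. The other 4 genes had estimates from -1.27 (Fmod) to -0.35 (Dcn) and did not pass. Leaving out the 5 libraries rich in hepatocyte markers left 4 CORT males and 3 CORT females. In that fit the calls fell over all 13049 genes, to 220 higher and 70 lower in males. Of the 10 genes 1 was called, Lum at -1.36 (edgeR adjusted p = 0.00263). Bgn was at -1.35 (0.0207), Postn at -2.58 (0.0122), Fbn1 at -1.52 (0.0184), Sparc at -0.99 (0.0698) and Fn1 at -1.08 (0.10). The Fn1 call was also lost without F10, F6 or M4 alone (adjusted p = 0.0228, 0.0131 and 0.0112), and in 8 of 32 alternative fits in total. Whether muscles of the 2 sexes were collected and sequenced together is not stated in the sources used here, so a batch and the sex cannot be told apart in these comparisons.

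**Figure D4:**
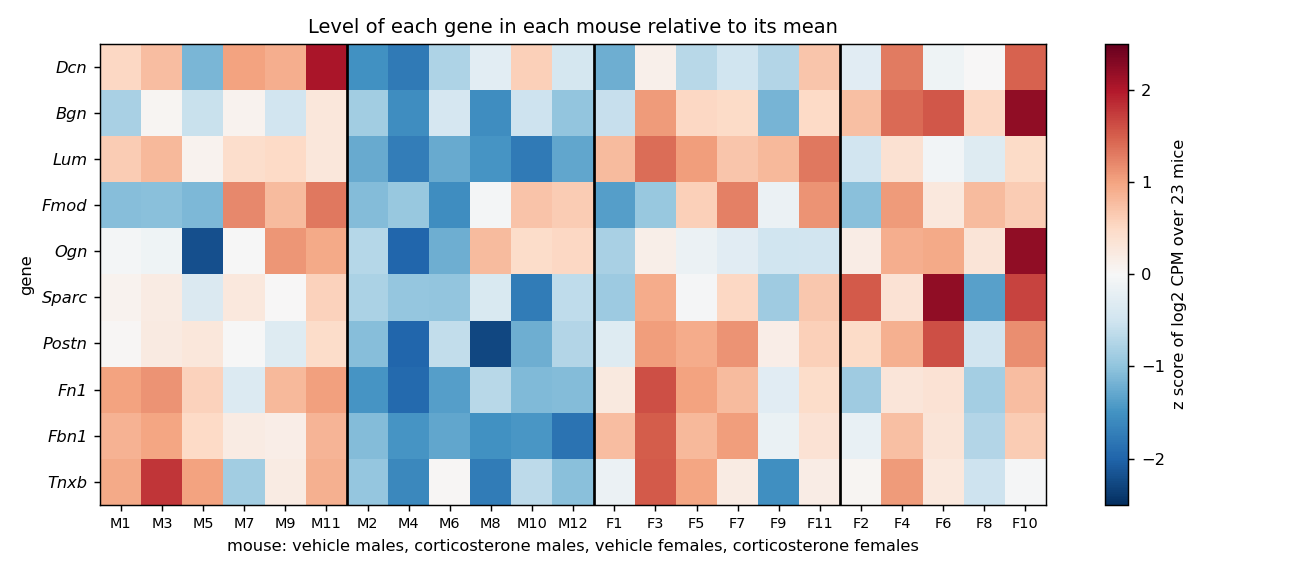
Level of each gene (rows) in each of the 23 mice (columns, M for males and F for females, black lines between groups) as the z score of its log2 CPM over all mice, blue below and red above the gene's mean. The 6 CORT males are blue for most genes, with M4 at a mean z score of -1.59, and F10 among the CORT females has the highest mean z score, 1.12.

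The genes varied from mouse to mouse, with a wider spread within groups than the median gene. The SD of log2 CPM within a group had a median over the 10 genes of 0.38 in vehicle-treated males, 0.34 in CORT males, 0.57 in vehicle-treated females and 0.61 in CORT females, against 0.20, 0.21, 0.21 and 0.28 over all tested genes. Over the 23 mice the 45 pairs of members had a median Pearson correlation of 0.50, and 1 pair was negative. After the group means were taken out the median was 0.46, from -0.26 to 0.79, with 3 negative pairs, as a description of libraries that share depth and tissue make-up. Averaged over the 10 genes, the z scores ran from -1.59 to -0.67 in the CORT males and from -0.29 to 0.87 in vehicle-treated males, so those groups did not overlap. The CORT females ran from -0.26 in F8 to 1.12 in F10 and vehicle-treated females from -0.44 to 0.84.

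The 5 other genes whose log2 CPM followed this average most closely over the 23 mice were Emp1 (r = 0.96), Col14a1 (0.94), Cd44 (0.93), Leprot (0.93) and Lix1l (0.93). Col14a1 encodes a collagen that sits on the surface of fibrils, and Cd44 is a receptor for hyaluronan. After the group means were taken out the correlations of these genes were 0.80 to 0.89, the highest again being Emp1, a membrane protein.

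Lumican and decorin are neighbours, 46984 bases apart on chromosome 10, and their ratio within a library needs no scaling between libraries. The log2 ratio of Lum to Dcn counts was -3.74 ± 0.32 in vehicle-treated males and -5.23 ± 0.39 in CORT males (SD, n = 6 each), a difference of -1.49 (exact permutation test, two-sided, p = 0.00216, adjusted over 6 such comparisons 0.00649). In females it went from -2.87 ± 0.18 (SD, n = 6) to -4.13 ± 0.20 (SD, n = 5), a difference of -1.26 (exact permutation p = 0.00433, adjusted 0.00866). The groups did not overlap in either sex, and both p values are the smallest these group sizes allow. The same Lum counts enter the ratio, so it is no separate support for the fall of Lum. The lowest female ratio with vehicle was above the highest male ratio with vehicle, and the same held with corticosterone.

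A second pair, asporin (Aspn) and Ogn, gave a similar picture. They lie 40480 bases apart on chromosome 13 with Omd, another small leucine-rich proteoglycan gene, between them. The log2 ratio of Aspn to Ogn differed by -0.99 in males, without overlap (exact permutation test, two-sided, p = 0.00216, adjusted 0.00649). In females it differed by -0.86 (exact permutation p = 0.0260, adjusted 0.0390). Likewise this ratio is no separate support for a fall of Aspn, whose counts enter it. The female value rested on F2 and F6, since without either of them the exact permutation p, not adjusted, was 0.0571. Fmod and Prelp on chromosome 1, 115839 bases apart, did not differ beyond their spread, with log2 differences of -0.77 in males (exact permutation p = 0.608) and -0.62 in females (exact permutation p = 0.688).

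**Figure D5:**
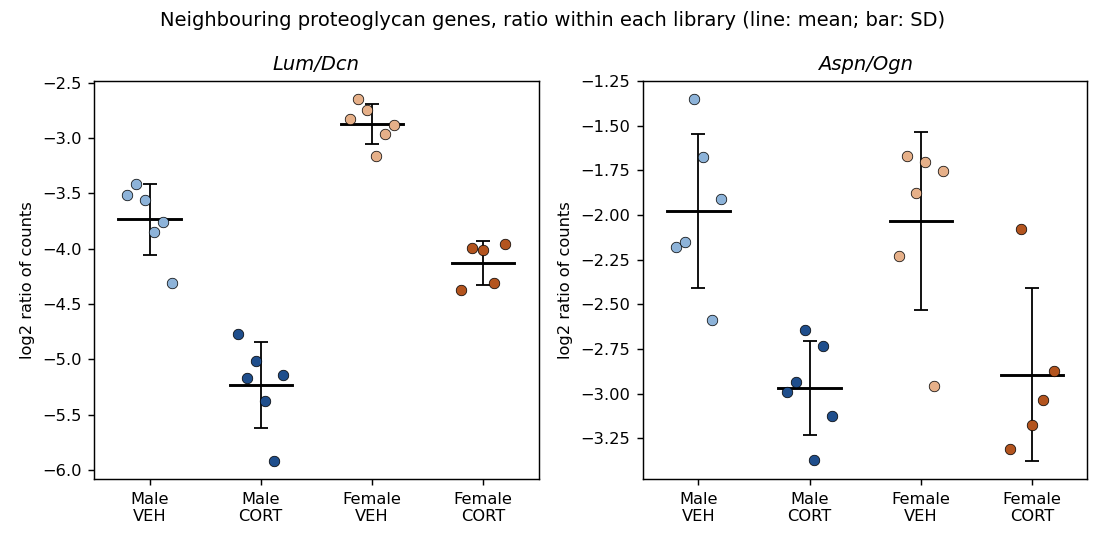
Log2 ratio of counts within each library for 2 pairs of nearby proteoglycan genes, Lum to Dcn and Aspn to Ogn, by sex and treatment. Omd lies between Aspn and Ogn. Points are mice, lines means and bars the SD. The CORT points lie below the VEH points in both sexes for Lum to Dcn, and in males for Aspn to Ogn.

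Related gene lists were counted by the same rule, which 26.3% of all genes passed in males and 13.4% in females. Of the 8 tested among 12 other small leucine-rich proteoglycans, 2 fell in males, Podn (log2 -1.96, SE 0.34), the gene of podocan, and Aspn (-1.11, SE 0.28), a decorin relative that binds collagen without a sugar chain. Prelp (log2 1.44, SE 0.31), which anchors collagen to basement membranes, rose in females. The median log2 fold change of the list was -0.77 in males and 0.09 in females. The count in females was 0 without F6 and 2 without F4, F8, M8 or M9 in turn, and that in males was 1 without M11.

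Among 18 tested of 23 other matricellular genes, 2 rose and 6 fell in males, and 2 rose and 2 fell in females. Fstl1, a secreted relative of Sparc, fell in males (log2 -2.23, SE 0.24) and was at -0.76 (SE 0.25) in females. Ccn1, an integrin ligand, rose in males (2.04, SE 0.28) and females (1.32, SE 0.29). Spock2, a proteoglycan of the Sparc family, rose in males (1.70, SE 0.18) and females (1.98, SE 0.18). Thbs3, a thrombospondin, fell in males (-1.66, SE 0.25) and was at -0.14 (SE 0.25) in females. The family of Sparc thus held members of both directions, since Smoc2 fell in males (-1.26, SE 0.16) and females (-1.37, SE 0.17), as did Sparcl1 (-1.08, SE 0.16 and -0.95, SE 0.17).

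Elastic fiber and microfibril genes, the partners of Fbn1, were called in 7 of 15 tested in males, all lower, and in 3 of 15 in females, 1 lower and 2 higher. In males Mfap4 (log2 -2.79, SE 0.49), a microfibril glycoprotein, and Emilin2 (-1.98, SE 0.35) fell most. Mfap2, which binds fibrillin, fell in males (-1.74, SE 0.24) and females (-1.0, SE 0.24). Fbln1, a fibulin that also binds fibronectin, rose in females (1.84, SE 0.34) and was at 0.50 (SE 0.32) in males. The female count was 1 without F2 or F10. The median log2 fold change of the 15 genes was -0.71 in males and 0.04 in females.

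Enzymes that build chondroitin and dermatan sulfate make the sugar chains of decorin and biglycan. Of 20 tested, 0 rose and 3 fell in males, where 13.1% of all genes fell. The 3 were Chst7 (log2 -1.09, SE 0.20), Chst14 (-0.92, SE 0.21) and Csgalnact1 (-0.57, SE 0.15), all of them with group means below 4 CPM. In females Ust, a sulfotransferase, rose (1.11, SE 0.26) and Xylt1, which starts the chain, fell (-1.06, SE 0.29). These 2 female calls changed with single mice, the count being 0 without F6, F7 or F10 and 6 without F8.

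All 19 matrix receptors on the list were tested, and 3 rose and 5 fell in males while 2 rose in females. Itga7, the laminin-binding integrin of muscle fibers, rose in males (log2 0.94, SE 0.11) and females (1.04, SE 0.11), and so did the syndecan Sdc4 (0.81, SE 0.16 and 0.71, SE 0.16). The receptors that fell in males included Itga2 (-1.68, SE 0.42), Itga11 (-1.28, SE 0.26) and Ddr2 (-1.13, SE 0.19), which bind collagen, and none of the 3 passed in females. Itga10 (0.82, SE 0.40) and Ddr1 (-0.40, SE 0.18), which also bind collagen, did not pass in males. The female count was 1 without F2 or F6. Without the 5 libraries rich in hepatocyte markers the female counts were 0 for the other small leucine-rich proteoglycans, the elastic fiber genes and the chain enzymes, 1 for the receptors and 3 for the other matricellular genes. The male counts there were 1 for those proteoglycans, 6 for the other matricellular genes, 6 for the elastic fiber genes, 2 for the chain enzymes and 5 for the receptors. Over all 13049 genes that fit called 221 higher and 241 lower in females, and 1321 higher and 1106 lower in males. With the interaction test 0 genes of these 5 related lists were called by edgeR at 0.01.

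Most markers of the cells that make most of these proteins moved in the same direction in males. Of 12 tested of 13 fibroblast and fibro-adipogenic progenitor markers, 8 fell in males and 0 rose, while in females 3 fell and 1 rose, a count of 4 that became 2 without F2, F3 or F6 or without the 5 libraries rich in hepatocyte markers. In males 11 of the 12 estimates were below 0. Dpep1 was above 0 (log2 0.67, SE 0.23) and did not pass (edgeR adjusted p = 0.0250). Without the collagens Col1a1 and Col3a1 the list summed to 1218 to 1967 CPM in vehicle-treated males and 850 to 1355 CPM in CORT males. The sums were 1321 to 1956 CPM in vehicle-treated females and 1155 to 2609 CPM in CORT females. Gsn was the largest part, at a mean of 988 CPM in vehicle-treated and 798 CPM in CORT males, and did not pass (edgeR adjusted p = 0.205). Smoc2 and Mfap5 of this list were also counted among the matricellular and elastic fiber genes. Pdgfra, the surface receptor that defines these cells, was at a mean of 30.4 CPM in vehicle-treated and 23.9 CPM in CORT males (log2 -0.35, SE 0.13) and did not pass (edgeR adjusted p = 0.0337). In females its log2 fold change was 0.15 (SE 0.13). No marker of the list was at 0 in every mouse, 1 (Tcf21) was at 0 in some, and the part of fibroblast number in the fall of the matrix genes was not tested.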

How the data were processed

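Quadriceps RNA of 23 mice was sequenced as stranded, paired-end 100-base libraries. Tools are those of the submitters' processing notes and the study's methods. The authors made the deposited counts with STAR 2.7.3a and HTSeq 0.12.4 against GRCm38 (mm10) with Ensembl release 97, read by strand. The deposited table holds raw counts per gene with no normalization, plus 5 summary entries per library that name no gene (10.7% to 15.3% of the library), which were left out. Fitted here were the 13049 genes with more than 20 median-of-ratios normalized counts in at least 4 mice of a group, with edgeR 4.0.16 (R 4.3.3, TMM, quasi-likelihood test, 1 mean per group over all 4 groups) and Benjamini-Hochberg adjustment at 0.01. CPM used TMM library sizes (factors 0.833 to 1.206). Gene positions and exon lengths came from GENCODE M21 and promoters from RefSeq. The lowest counts of a member in a library were 17 (Postn) and 20 (Fmod). No 2 libraries of a group were alike within sampling noise (lowest chi-square per degree of freedom 15.05).

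On simulated data for the male comparison, with 13049 genes, 72.5% of genes changed by 1 log2 unit and 89.8% of those changed by 2 were recovered. In the female comparison, also with 13049 genes, the shares were 83% and 95%. DESeq2 1.42.0, limma 3.58.1 (voom with quality weights), other filters and scalings, each group pair alone, the replicate number as a block, each mouse left out and 2 sets of libraries left out were the alternatives. The members and lists were chosen with earlier results of these data known. Named in the text are the 10 members and up to 4 called genes of each related list by size of change. Also named are the 5 genes most correlated with the members' average, and markers where their levels touch a result. Smoc2, Sparcl1, Csgalnact1, Sdc4, Itga10, Ddr1, Omd and Mfap5 were added after their values were seen. So were the markers Lep, Lipe, Tcf21, Cilp2, Chad, Kera, Scx, Gsn and Dpep1.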

Additional observations from a re-analysis of the deposited data

Results flagged for a closer look

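For Dcn and Bgn every corticosterone-treated male lay below the male vehicle mean and every corticosterone-treated female lay above the female vehicle mean. The difference of the male and female responses was -0.68 on the log2 scale for Dcn (SE 0.21, edgeR adjusted p = 0.0396) and -1.48 for Bgn (SE 0.38, edgeR adjusted p = 0.0211), and neither passed 0.01. Of the 40 gene and group sets screened for a single mouse far from its group, 0 stood apart.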

How the results depend on the processing

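In males 5 genes were called with DESeq2, both other filters and the other scaling. There were 6 with males fitted alone (Sparc added) and 7 with limma-voom (Dcn and Sparc added). The count was 4 without M8 and F10 or without F6, F10, M8, M9 and M12 (chosen after seeing the data). Over all genes 1706 were called lower in males in the main fit, 1947 with DESeq2, 1745 with males alone and 2069 with limma-voom. Without M8 and F10 these were 1399, and without F6, F10, M8, M9 and M12 they were 1106. In females the count was 2 with DESeq2 (Lum and Bgn) and 0 with a log2 fold change beyond 1 required. DESeq2 called 1333 of all genes higher and 1125 lower in females, against 965 and 783 in the main fit. No other of these settings moved the female count. The interaction count was 4 with DESeq2 and 2 with limma-voom. The count between corticosterone-treated males and females was 1 without the 5 libraries rich in hepatocyte markers and 4 to 6 in the other settings. The fit without these libraries had fewer mice, and it called 220 of all genes higher and 70 lower in males. The vehicle count was 0 in all of them. Leaving out 1 mouse at a time gave 4 to 5 calls in males, 1 to 3 in females, 0 to 5 for the interaction, 5 to 6 between corticosterone-treated sexes and 0 to 0 between vehicle-treated sexes.

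Some estimates changed sign, and not all of them were near 0. In the main results the female response of Postn was 0.42 and the female change in the log2 ratio of Fmod to Prelp was -0.62. Without the 5 libraries, the female response was 0.0381 for Fmod and -0.47 for Postn, and the vehicle sex difference of Fn1 was -0.0027. The vehicle sex difference was -0.35 for Fmod and 0.0492 for Sparc with limma-voom, and 0.0487 for Sparc with the replicate block. Over fits without 1 mouse the female response ran from -0.70 to 0.45 for Fmod, -0.0744 to 0.68 for Postn and -0.16 to 0.0771 for Tnxb, and the vehicle sex difference from -0.38 to 0.87 for Fmod, -0.13 to 0.26 for Fn1 and -0.12 to 0.11 for Sparc. The female change in the log2 ratio of Fmod to Prelp ran from -1.31 to 0.21. The cause was not tested. Without division by exon length Dcn ranked above Sparc in corticosterone-treated males, and the order below them also changed. In vehicle-treated males Fn1 (86.3 CPM), Fbn1 (68.9) and Tnxb (66.7) then ranked above Bgn (64.5), Ogn (50.4) and Lum (32.2).

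Males and females share numbers in the labels (F1 and M1), and 7 of 11 same-numbered pairs deviated together with r above 0.1. All vehicle pairs had r above 0, from 0.08 to 0.48, while the CORT pairs ran from -0.38 to 0.24. What the number stands for is not stated in the labels, and the main fit did not use it. With the number as a replicate block 4 genes were called between corticosterone-treated sexes, without Fn1 (adjusted p = 0.0228) and Sparc (0.0174), and 0 for the interaction and between vehicle-treated sexes. No block could be fitted to corticosterone against vehicle within a sex, since those groups share no number.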

Other observations

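Related gene lists were also compared between corticosterone-treated males and females, where 1828 of all 13049 tested genes were lower in males in the main fit. Without F6, F10, M8, M9 and M12, the libraries rich in hepatocyte markers, 70 of all genes were lower and 220 higher. That fit had fewer mice. The list counts that follow are given for the main fit only, and they may rest on these libraries. Of 15 tested elastic fiber and microfibril genes 12 were lower in males and 0 higher (median log2 difference -1.07), as were 10 of 12 fibroblast markers (-0.87), 8 of 20 chondroitin and dermatan sulfate enzymes (-0.45), 5 of 18 other matricellular genes (-0.92) and 2 of 8 other small leucine-rich proteoglycans (-1.25). Of the 19 matrix receptors 7 were lower and 1 higher (-0.41). Schwann cell markers, made by the cells that wrap nerves, were lower in corticosterone-treated males for 5 of 6 (-1.47), with summed levels of 43.0 to 88.9 CPM in these males and 84.5 to 281 CPM in corticosterone-treated females. With vehicle 0 of these 6 markers passed, and all 6 estimates were below 0 (median -0.79). Macrophage markers were lower in corticosterone-treated males for 5 of 7 (-1.25). Among corticosterone-treated females F10 had the highest sum of Schwann cell markers (281 CPM) and of macrophage markers (249 CPM). Of 8 adipocyte markers 1 was lower, and all 8 estimates were below 0 (-2.80).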
